A study of Macaca mulatta and Mus musculus and Rattus norvegicus with 12 samples.

Results

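Skeletal muscle sarcomere and contraction genes were followed through RNA-Seq libraries of bone. The set held 39 genes, chosen by name as genes of the contractile apparatus of skeletal muscle and matched to the gene symbol of each table row. The tables named 75861 different symbols over 3 species, and the set is a small corner of them. All 39 genes had a row in mouse and in rat. In macaque 25 of 39 had a row under their own symbol, and MYH1, MYL1, MYL3, MYLPF, MYBPC2, TNNC1, TNNI2, TNNT1, TNNT3, TTN, CASQ1, DES, ENO3 and PVALB were absent.

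The study compared cranial bone (calvaria) with tibia in mouse, rat and rhesus macaque, in preparations meant to hold mainly osteocytes, the cells embedded in bone matrix. The 12 libraries were 2 of calvaria (M4 and M8) and 2 of tibia (M5 and M7) from female C57BL6 mice of 4 months, each library a pool of 3 animals. A library of calvaria (R1) and a library of tibia (R3) came from female Wistar rats of 6 months, each a pool of 2 animals, so the rat had no replicates. The macaque libraries were 3 of calvaria (G1, G3 and T1) and 3 of tibia (G2, G4 and T2), each from 1 female, at an age that the labels give as 4 to 6 months and the study's methods give in years. No animal carried an engineered allele or received a treatment. Periosteum was removed, accessible surfaces were scraped and treated briefly with collagenase, marrow was spun out of rodent tibias, and sutures were cut out of rodent calvariae. Species, genome and annotation cannot be told apart. Mouse and rat libraries shared lane 3 and macaque libraries lane 4, so lane adds to these where macaque is set against mouse or rat. Skull and long bone were collected as pairs, but neither the labels nor the methods name the pairs.

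Skeletal muscle contracts when myosin heads pull on actin filaments inside repeating units called sarcomeres. Calcium released from internal stores binds troponin C, which shifts troponin and tropomyosin on the actin filament and lets myosin bind. Many of these proteins exist as a fast and a slow isoform encoded by separate genes, and adult fibres use mainly the set that fits their speed. Muscles attach to both bones: the temporal muscle covers much of the side of the skull, and large lower leg muscles surround the tibia. In bulk RNA, fewer cells of a type and less RNA per cell cannot be told apart.

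The fast myosin heavy chain genes are close copies that lie side by side, so their sequences are shown to let a reader judge how well reads can be assigned. MYH2, MYH1, MYH4 and MYH8 occupied chr11:67171027-67308634 of the mouse genome build GRCm38, in that order and all on the plus strand. The last 90 bases of the first coding exon of each gene are given 5′ to 3′, from the reference genome with the GENCODE annotation. Capitals mark bases that differ from MYH1.
MYH1, chr11:67201996-67202085: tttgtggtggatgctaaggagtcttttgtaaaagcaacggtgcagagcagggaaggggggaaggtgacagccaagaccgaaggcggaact
MYH2, chr11:67173230-67173319: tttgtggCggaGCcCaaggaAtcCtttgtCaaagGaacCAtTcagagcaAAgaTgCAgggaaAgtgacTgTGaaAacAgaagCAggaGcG
MYH4, chr11:67240738-67240827: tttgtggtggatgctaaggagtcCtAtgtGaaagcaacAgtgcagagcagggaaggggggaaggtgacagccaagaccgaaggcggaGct
MYH8, chr11:67278977-67279066: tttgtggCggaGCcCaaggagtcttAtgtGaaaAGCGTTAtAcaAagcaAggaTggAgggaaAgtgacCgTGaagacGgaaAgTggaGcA
MYH4 differed from MYH1 at 5 of the 90 bases, MYH2 at 26 and MYH8 at 27. Over whole transcripts, 5.02% of all 125-base stretches of MYH1 also occurred in another gene, against 4.25% for MYH2, 2.66% for MYH8 and 1.88% for MYH4. The read length was 125 bases, so a small part of the reads of these genes could not be assigned to a single gene. MYH7 shared 7.40% of its stretches with the cardiac gene MYH6, TNNC2 shared 10.6% with the neighbouring UBE2C, and the other members shared none. A second neighbouring pair was TNNI2 at chr7:142441808-142444410 and TNNT3 at chr7:142498836-142516009, the fast troponin I and troponin T genes.

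Reads on named genes numbered 13934813 to 16826535 per library in mouse, 14255423 in R1, 12233256 in R3, and 7951585 to 10342459 in macaque. A list of 9 osteocyte and osteoblast genes summed to between 10330 and 66564 reads per 1000000 reads (RPM) in every library. COL1A1, the main collagen of bone, gave 31.4 to 88.9% of this sum. In macaque 6 of the 9 had a row, and SOST, FGF23 and PDPN had none under their own symbol. Of the genes that define osteocytes, DMP1 had 1079 to 34033 reads and MEPE 2661 to 151125 over the 12 libraries, while SOST had 5 and 15 reads in R1 and R3 and FGF23 had none in rat. Calvaria libraries held more neutrophil reads (6 listed genes, 4 with a row in macaque). They stood at 90540 and 113302 RPM in mouse calvaria against 58007 and 63302 in tibia. The macaque values were 35276 to 52267 RPM in calvaria against 7764 to 13806 in tibia. Red cell genes summed to 2185 to 2568 RPM in macaque calvaria against 477.9 to 663.8 in tibia, while the mouse sites overlapped. In macaque all 4 neutrophil genes and all 4 red cell genes tested were called higher in calvaria, as were 10.3% of all symbols. Of 10 heart muscle genes NPPA, NPPB, MYL7 and MYH6 stood at 0 to 3 reads in every library with a row for them, MYL4 was called higher in calvaria in mouse, and TNNI3 and RYR2 were in macaque, where T1 held the most reads of both. The part of these cells in the results was not tested.

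The summed reads of the members overlapped between sites in mouse and macaque, and rat had a single library per site. In mouse calvaria the members took 0.567% of reads in M4 and 0.308% in M8, and in tibia 0.105% in M5 and 0.405% in M7. The 95% Wilson intervals were narrow, with bounds of 0.563 and 0.571% for M4 and of 0.103 and 0.106% for M5, and cover counting error only. The 2 sites overlapped: M7 lay between M4 and M8, and M5 stood 2.94 to 5.42 times below the other 3 libraries. In rat the members took 0.0133% of reads in R1 and 0.213% in R3, a 16.1-fold difference in the sum. In macaque they took 0.00554 to 0.00592% in calvaria and 0.00556 to 0.00784% in tibia, over the 25 genes with a row. Adding the 12 members that could be recovered through numbered LOC symbols raised the macaque sums to 97.5 to 119.2 RPM in calvaria and 102.8 to 155.9 in tibia, mostly through TTN, and the sites still overlapped.

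**Figure D1:**
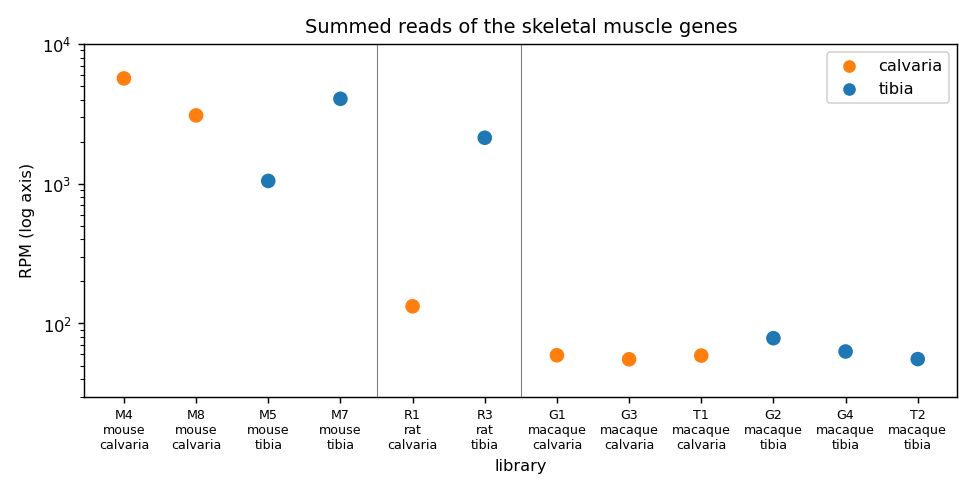
Summed RPM of the member genes in each of the 12 libraries (vertical log axis), calvaria in orange and tibia in blue. M5 is the lowest mouse library at 1047 RPM, R1 at 132.7 lies far under R3 at 2133, and the 6 macaque libraries sit between 55.42 and 78.45.

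In mouse, most members moved together across the 4 libraries. M5 alone was the lowest library for 30 of 39 members (76.9%), against 17.1% of all 22339 symbols tested, and the highest for none. M4 was the highest for 25 of 39 (64.1%), against 26.7% of all symbols. Ranked by reads per kilobase of exon, the members kept much the same order in any pair of mouse libraries, with Spearman's rho across the 39 genes between 0.83 and 0.94. These are descriptions across genes of libraries that share a lane and an annotation.

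**Figure D2:**
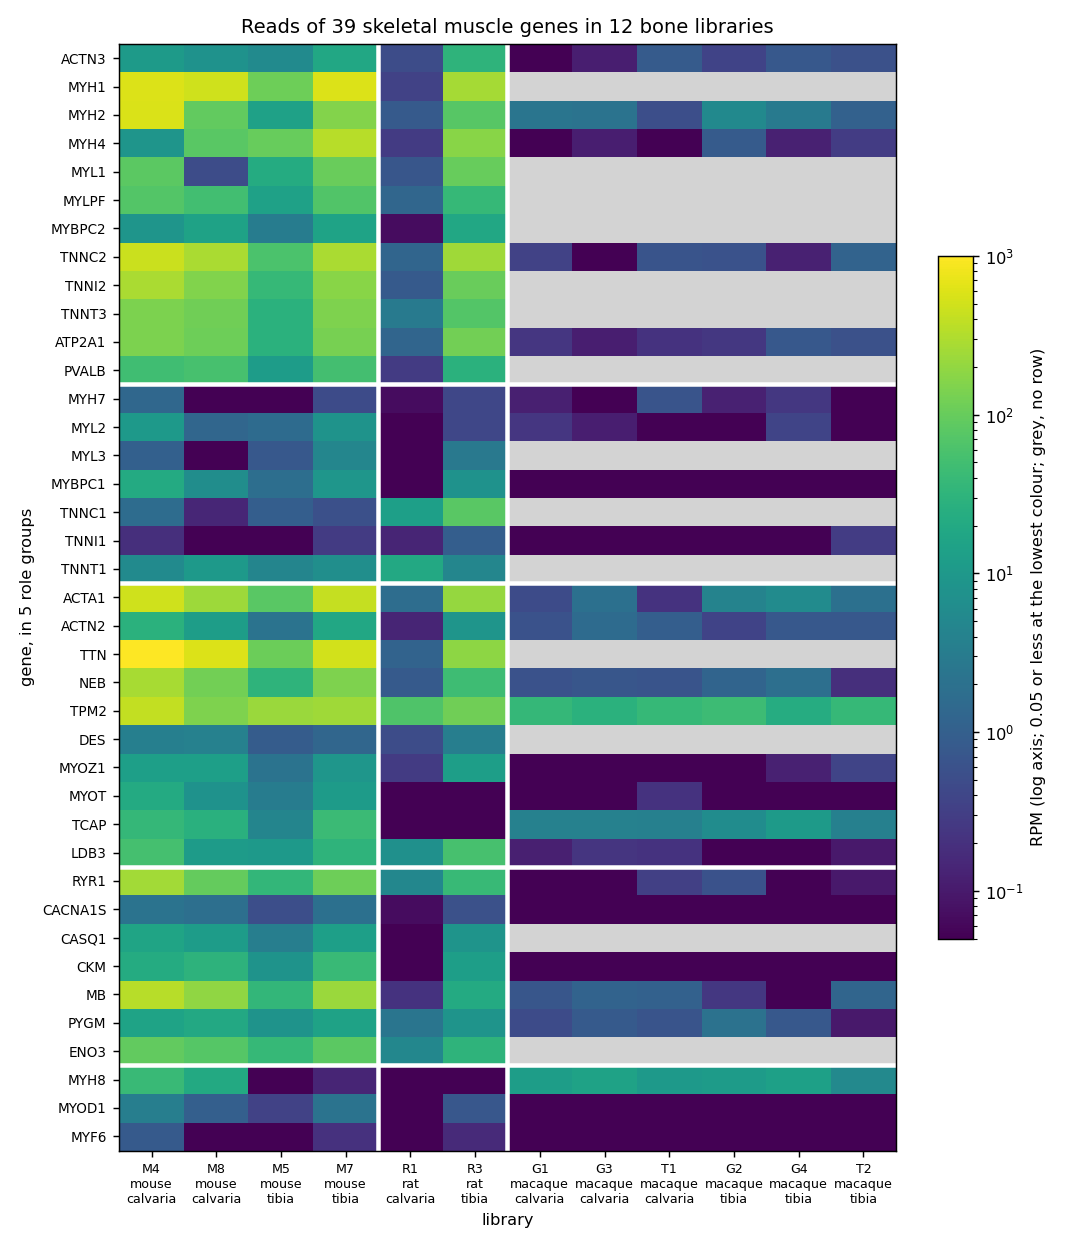
RPM (log colour scale) of the 39 members in rows, in 5 role groups separated by white lines, and the 12 libraries in columns. The mouse libraries and R3 are bright for most fast isoforms and shared sarcomere genes, R1 and the macaque libraries are dark, and TPM2 is above 20 RPM in all 12 libraries.

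The site comparison within mouse called 1 of 39 members. A gene was called in edgeR's quasi-likelihood test when its Benjamini-Hochberg adjusted p over all symbols tested was under 0.2 and its fold change over 1.1, the thresholds of the study. Of all mouse symbols 2.28% were called, and 0.712% were called higher in calvaria. The p-values measure the spread between these libraries, each of which is a pool of animals in mouse and 1 animal in macaque. The member called was MYH8. The median log2 fold change of calvaria over tibia was 0.73 over the members and 0.05 over all symbols, and 11 members had an unadjusted p under 0.05. The share of all symbols under that value was not computed, and most members moved together across libraries. No excess is therefore read from this count or from those of the role groups. Both calvaria libraries exceeded both tibia libraries for 7 members (TNNC2, TTN, DES, MYOZ1, CACNA1S, PYGM and MYH8), where 17.3% of all symbols did so. The reverse held for MYH4 alone, where 18.4% of all symbols did so.

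The count of called members depended on single libraries. It was 27 without M4, 30 without M8, 20 without M7 and 2 without M5, from a site then represented by 1 library that is assumed to vary like the other site. The call rate over all symbols was 34.4% without M4, 17.6% without M8, 1.44% without M7 and 1.01% without M5. All 20 members called without M7 were higher in calvaria, including ACTA1, MYH1, TTN and MB. Without M5 the calls were MYH4 and MYH8. MYH8 was the only member called in every one of these 4 fits and in the fit of all libraries.

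**Figure D3:**
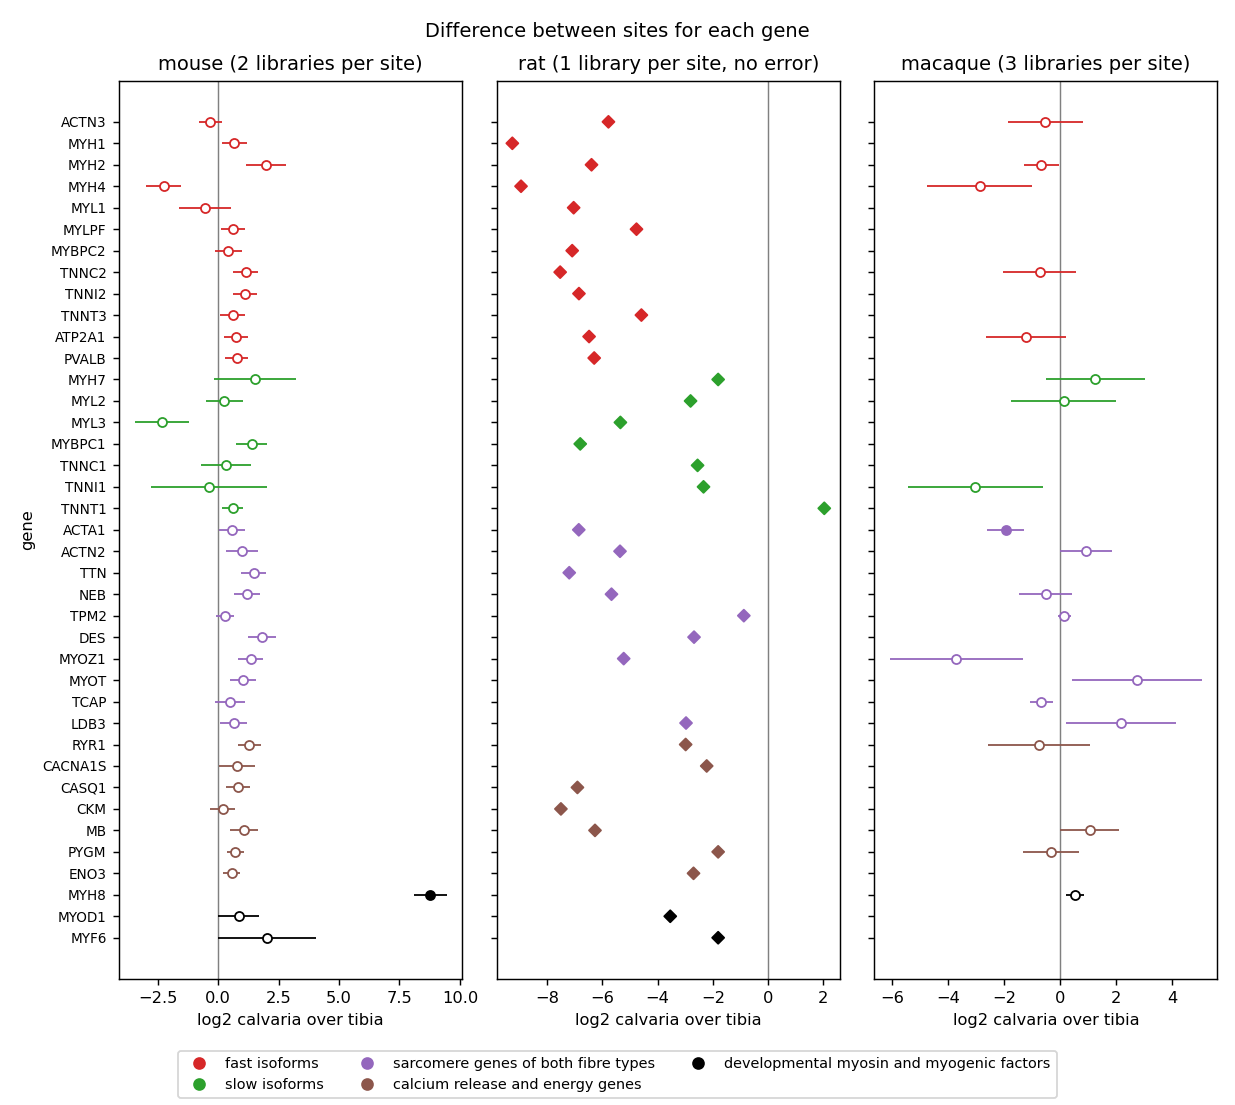
Log2 calvaria over tibia for each member (horizontal axis, a different range in each panel) in mouse, rat and macaque, coloured by role group, with bars of 1 standard error where there were replicates and filled circles for called genes. Mouse members gather just right of 0 with MYH8 far to the right at 8.78, rat members lie left of 0 except TNNT1, and macaque members scatter around 0 with wide bars and ACTA1 called at -1.94.

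Developmental myosin and myogenic factors held the clearest difference. MYH8 encodes the perinatal myosin heavy chain, made around birth and kept in some specialised muscles of the head. It had 630 reads in M4 and 284 in M8, against 0 in M5 and 2 in M7. Its level was 31.0 ± 13.2 TMM-scaled counts per 1000000 (CPM) in calvaria and 0.0684 ± 0.0967 in tibia (SD, n = 2 each). The sites did not overlap, although M5 and M7 held 1922 and 8655 reads of MYH1 from the same gene cluster. Summed over libraries the calvaria level was 514 times that of tibia, with an exact 95% counting interval from 142 to 4249. The fitted log2 fold change was 8.78 (SE 0.67, adjusted p = 1.4e-05 in edgeR's quasi-likelihood test and 0.124 with its default expression filter), a value that depends on how the 2 tibia reads are smoothed.

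The 2 muscle regulatory factors of the group were low in mouse. MYOD1, which commits cells to the muscle lineage, had 54 and 14 reads in M4 and M8 against 6 and 32 in M5 and M7, so the sites overlapped. MYF6, a factor of mature fibres, had 13, 0, 0 and 3 reads in the same order. MYH3, the embryonic myosin heavy chain and not a member, had 44 and 3 reads in M4 and M8 and none in tibia. This made it at least 17.6 times higher in calvaria (floor of 3 reads over the tibia libraries), and it was called (adjusted p = 0.115, edgeR's quasi-likelihood test). PAX7, a marker of muscle stem cells, had 8, 1, 0 and 0 reads in M4, M8, M5 and M7. In macaque MYH3 had 9, 4 and 5 reads in G1, G3 and T1 and none in tibia. Its calvaria level was 6.90 times a floor of 3 reads over the tibia libraries. It was called there too (log2 fold change 5.71, adjusted p = 0.057, edgeR's quasi-likelihood test). Rat had no read of MYH3.

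The adult heavy chains were present in all 4 mouse libraries in unlike proportions. MYH1, MYH2 and MYH4 encode the fast IIx, IIa and IIb chains, and MYH7 the slow chain. MYH1 had 9402 reads in M4 and 6742 in M8, against 1922 in M5 and 8655 in M7. MYH1 was the leading heavy chain gene of all 4 libraries, with 49.0, 71.6, 49.9 and 54.2% of heavy chain reads in M4, M8, M5 and M7. MYH2 had 8981 reads in M4 and 1296 in M8, against 247 in M5 and 2311 in M7. That was 46.8% of the heavy chain reads of M4 and between 6.41 and 14.5% in the other 3 libraries, so the calvaria libraries differed from each other more than the sites did. MYH4 had 136 reads in M4 and 1093 in M8, against 1684 in M5 and 4980 in M7.

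MYH4 therefore ran against most other members. It made up 43.7% of heavy chain reads in M5 and 31.2% in M7, but 0.709% in M4 and 11.6% in M8. Its log2 fold change was -2.25 (SE 0.73, adjusted p = 0.278), MYH2 had 1.97 (SE 0.82, adjusted p = 0.513) and MYH1 0.67 (SE 0.51, adjusted p = 0.862), all from edgeR's quasi-likelihood test and none called. MYH4 was called without M5 (-2.89), without M4 (-1.41) and without M8 (-4.65). MYH2 was called without M7 (4.59) and without M8 (2.74) but not without M4 (0.18) or M5 (1.09). MYH1 was called without M4, M7 or M8 (0.53, 2.36 and 0.78) but not without M5 (-0.09). MYH8 added 3.29% of heavy chain reads in M4 and 3.02% in M8. MYH7 stood at 21, 0, 0 and 7 reads in M4, M8, M5 and M7, at most 0.11% of heavy chain reads.

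Of the other 9 fast isoforms 8 were lowest in M5 in RPM, while the highest library was M4, M7 or, for PVALB, M8. No fast isoform was called in mouse by edgeR's quasi-likelihood test, DESeq2 or edgeR's exact test, and 4 of 12 had an unadjusted p under 0.05. Per length, TNNC2, the fast troponin C that binds calcium, was the highest of them. It had 7009 reads in M4 and 3925 in M8, against 999 in M5 and 4122 in M7. The log2 fold change was 1.14 (SE 0.51, adjusted p = 0.566), and TNNC2 was called without M4 (0.80), M7 (2.73) or M8 (1.41) but not without M5 (0.41). TNNI2, the fast inhibitory troponin, had 4456, 2129, 640 and 2506 reads in M4, M8, M5 and M7, with a log2 fold change of 1.11 (SE 0.51, adjusted p = 0.599). It was called without the same 3 libraries, at 0.62, 2.63 and 1.46, and stood at 0.38 without M5.

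Levels of TNNT3, the fast troponin T, were 2190, 1644, 476 and 2152 reads in M4, M8, M5 and M7. MYLPF, the fast regulatory light chain, had 1120, 688, 242 and 989. ATP2A1, the fast calcium pump SERCA1, had 2231, 1545, 468 and 1907, and PVALB, a calcium buffer of fast fibres, 753, 787, 202 and 757. In each of these M5 was the lowest library. ACTN3, the fast alpha-actinin of the Z-disc, ran from 96 reads in M5 to 274 in M7, and MYBPC2, the fast myosin binding protein C, from 54 in M5 to 224 in M7.

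MYL1, the fast essential light chain, departed from this pattern and is singled out after its values were seen. It had 1309 reads in M4, 367 in M5 and 1496 in M7, but 7 in M8, where MYLPF had 688 and MYH1 6742. Among member reads its share in M4 was 90.9 times that in M8. TTN, MB and TNNI2 had shares in M4 close to those in M8 (0.995, 0.992 and 1.02 times), but other members did not. The share of MYH4 in M4 was 0.061 times that in M8, and those of TNNC1, MYL2 and MYH2 were 6.32, 4.24 and 3.37 times. Its log2 fold change was -0.54 (SE 1.08, adjusted p = 0.901, edgeR's quasi-likelihood test). The sign turned without M7 (1.02) or M8 (0.45), and without M4 the gene was called at -6.84. No 125-base stretch of MYL1 occurred in another gene.

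Slow isoforms were scarce in mouse. No slow isoform was called by edgeR's quasi-likelihood test, DESeq2 or edgeR's exact test, and 1 of 7 had an unadjusted p under 0.05. MYBPC1, the slow myosin binding protein C, was the most read of them, with 330 and 89 reads in M4 and M8 against 30 and 132 in M5 and M7. MYBPC1 had a log2 fold change of 1.39 (SE 0.63, adjusted p = 0.594) and was called without M7 (3.04) or M8 (2.0) but not without M4 (0.34) or M5 (0.63). MYL2, the slow and cardiac regulatory light chain and the highest of the group per length, had 157 and 18 reads in calvaria against 27 and 118 in tibia. TNNT1, the slow troponin T, had 89 and 145 reads against 77 and 97, or 5.71 and 10.4 RPM against 4.58 and 6.68, so it was highest in M8. MYL3 had 16, 0, 13 and 68 reads, TNNC1 26, 2, 16 and 8, and TNNI1 3, 0, 0 and 4, in M4, M8, M5 and M7.

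The fast share was read from 7 isoform pairs, as fast over fast plus slow reads per kilobase of exon. It was 98.2% in M4 and 98.7% in M8, and 96.4% in M5 and 97.8% in M7, a mean of 98.5 ± 0.368% in calvaria and 97.1 ± 0.955% in tibia (SD, n = 2 each). The pairs did not all behave alike. Heavy chains and troponin I were over 99% fast in all 4 libraries, and myosin binding protein C was the least fast, at 34.5% in M4 and 68.3 to 74.8% in M8, M5 and M7. The regulatory light chains were 87.3 to 97.4% fast and troponin T 82.5 to 94.9%. The lowest mouse value for troponin T was that of M5.

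**Figure D4:**
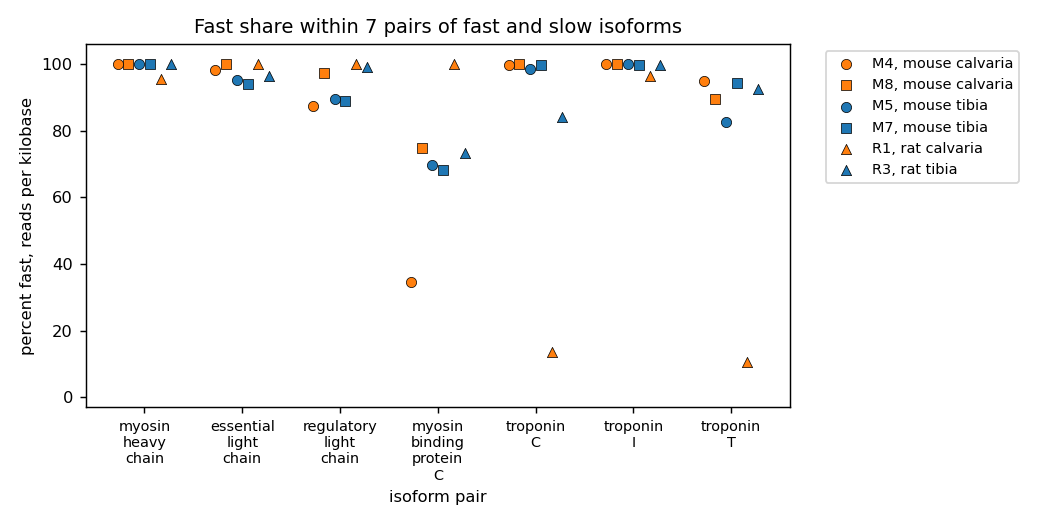
Share of the fast isoform within 7 pairs of fast and slow genes (percent of reads per kilobase) in the mouse and rat libraries, circles and squares for mouse, triangles for rat, orange for calvaria and blue for tibia. Mouse points lie above 80% except for myosin binding protein C, and the R1 triangle drops to 13.6% for troponin C and 10.6% for troponin T.

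Sarcomere genes of both fibre types varied with the library in mouse. No gene of this group was called by edgeR's quasi-likelihood test or DESeq2, edgeR's exact test called DES, and 4 of 10 had an unadjusted p under 0.05. ACTA1, the skeletal muscle actin and the highest of the group per length, had 7536 reads in M4 and 3323 in M8, against 1334 in M5 and 6093 in M7. For ACTA1 the log2 fold change was 0.58 (SE 0.54, adjusted p = 0.874). It was called without M7 (2.29) and without M8 (0.97), was at 0.02 without M4, and without M5 its sign turned (-0.18). TTN, the giant spring titin, had 16768 and 8192 reads in calvaria against 1802 and 7384 in tibia, with a log2 fold change of 1.48 (SE 0.52, adjusted p = 0.338). The calvaria libraries lay above the tibia libraries, M8 only narrowly above M7, and TTN was called without M4 (1.02), M7 (3.06) or M8 (1.82) but not without M5 (0.75).

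DES, the intermediate filament desmin, had close replicates, with 55 and 54 reads in M4 and M8 against 15 and 19 in M5 and M7. The fitted log2 fold change was 1.83 (SE 0.59, adjusted p = 0.263 in edgeR's quasi-likelihood test and 0.162 in its exact test). It was called without M4 (1.92) and without M8 (1.71). NEB, the thin filament ruler nebulin, had 4322, 1667, 531 and 2167 reads in M4, M8, M5 and M7, and ACTN2, the alpha-actinin of all fibres, 437, 175, 37 and 274. The Z-disc genes MYOZ1, MYOT, TCAP and LDB3 ran from 36 to 210, 53 to 326, 76 to 619 and 157 to 829 reads and were each lowest in M5 in RPM.

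TPM2, the beta-tropomyosin, did not follow most other members in mouse. It had 6344 and 2046 reads in M4 and M8 against 3834 and 3550 in M5 and M7, so M5 was not its lowest library. The same held for MYH4, MYL1, MYL2, MYL3 and TNNC1. Its log2 fold change was 0.29 (SE 0.36, adjusted p = 0.874), which turned to -0.59 without M4 and was called at 0.82 without M8. Among all member reads the share of TPM2 in M5 was 3.61 times that in M7. TNNC1 had a larger ratio (6.68, from 16 and 8 reads), and TNNT1, DES and PYGM had 2.65, 2.64 and 2.13. TPM2 is also expressed outside skeletal muscle, in smooth muscle and fibroblasts. The list of 10 smooth muscle genes had its lowest mouse sum in M8, at 273.7 RPM against 517.9 to 705.8 in M4, M5 and M7. CALD1 and MYLK gave 1797 and 1543 of its 3814 reads in M8. The tendon list (63.2 RPM) and the osteocyte and osteoblast list (11176 RPM) were lowest in M8 too. The part of smooth muscle cells or fibroblasts in the TPM2 values was not tested.

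Calcium release and energy genes were all 7 nominally higher in calvaria and none was called in mouse by edgeR's quasi-likelihood test, DESeq2 or edgeR's exact test, with 1 unadjusted p under 0.05. MB, the oxygen-binding myoglobin and the highest of the group per length, had 5405 and 2649 reads in calvaria against 592 and 3314 in tibia. For MB the log2 fold change was 1.07 (SE 0.58, adjusted p = 0.716), and it was called without M4 (0.61), M7 (3.03) or M8 (1.41) but not without M5 (0.27). RYR1, the calcium release channel, had 3943 and 1355 reads against 587 and 1641, with 1.29 (SE 0.48, adjusted p = 0.404), and was called without the same libraries (0.49, 2.42 and 1.80) but not without M5 (0.66). CKM, the muscle creatine kinase, had 350 and 425 reads against 138 and 591, and a log2 fold change of 0.19 (SE 0.52, adjusted p = 0.937). The sign of CKM turned without M5 (-0.56) and without M8 (-0.09), and without M4 it was called at 0.42. CASQ1, which stores calcium, and the enzymes PYGM and ENO3 were lowest in M5 too, at 58, 137 and 638 reads. CACNA1S, the voltage sensor of the release channel, had 9 to 34 reads.

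Rat showed a wide gap between its libraries, with no replicate to measure the spread. A gene was counted as past the fold where the log2 ratio of calvaria over tibia RPM, with 1 read added, exceeded 2 in size. Of the 36 members with reads in either library, 31 were past the fold and higher in R3, where 8.14% of 19234 symbols were. TNNT1 was past it in the other direction, where 1.55% of symbols were. The median log2 ratio was -5.36 over the members and -0.29 over all symbols. In a further count MYF6, at 0 and 2 reads, was left out. The other 6 genes with reads in R3 but none in R1 were set at the bound that a floor of 3 reads gives. The median was then -5.23 and 30 members were past the fold in either direction. MYH8, TCAP and MYOT had no read in either rat library.

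All 12 fast isoforms were past the fold in rat and higher in tibia. MYH1 had 5 reads in R1 and 3172 in R3, a log2 ratio of -9.27. TNNC2 went from 18 to 3020 reads (-7.53), MYH4 from 4 to 2124 (-8.95), MYL1 from 10 to 1245 (-7.04) and MYH2 from 12 to 939 (-6.40). In R3 the heavy chains were 50.8% MYH1, 34.0% MYH4 and 15.0% MYH2, whereas the 22 heavy chain reads of R1 were too few to read a composition from. The smallest log2 ratios of the group were -4.59 for TNNT3 (41 and 866 reads) and -4.77 for MYLPF (19 and 466 reads). The remaining fast isoforms, ATP2A1, TNNI2, PVALB, ACTN3 and MYBPC2, had 1 to 18 reads in R1 and 234 to 1459 in R3.

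Of the 7 slow isoforms 5 were past the fold in rat and higher in tibia, and TNNT1 was past it in the other direction. Their median log2 ratio was -2.55, beside -6.67 for the fast isoforms, and the difference was not tested. TNNT1 had 282 reads in R1 and 58 in R3, so tibia stood at 0.24 times the calvaria level (exact 95% counting interval 0.178 to 0.319). TNNC1, the slow and cardiac troponin C, had 194 reads in R1 and 980 in R3, a log2 ratio of -2.55. MYBPC1 and MYL3 had no read in R1 and 95 and 34 in R3, or 36.9 and 13.2 times a floor of 3 reads in R1. Their exact 95% counting intervals of tibia over calvaria began at 29.4 and 10.2. MYL2, TNNI1 and MYH7 had at most 12 reads in any rat library. The fast share was 19.6% in R1 and 89.7% in R3, and the R1 value rested on 122 fast and 479 slow reads, of which TNNT1 and TNNC1 gave all but 3.

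Genes of both fibre types and of energy use were depleted in R1 to very different degrees. ACTA1 had 25 reads in R1 and 2588 in R3 (-6.86), TTN 17 and 2277 (-7.20), NEB 12 and 568 (-5.67), and MB 3 and 264 (tibia over calvaria 103, exact counting interval 34.7 to 500.4). CKM and CASQ1 had no read in R1 and 155 and 102 in R3, at least 60.2 and 39.6 times higher in tibia. LDB3 had 101 and 685 reads, RYR1 70 and 481, and ENO3 69 and 389, log2 ratios of -2.97, -2.98 and -2.70. PYGM had 33 and 101 reads (-1.81) and did not pass the fold. TPM2 had 918 and 1445 reads (-0.87) and was the most read member of R1. TPM2, TNNT1, TNNC1, LDB3, RYR1 and ENO3 together gave 86.4% of member reads in R1 and 15.5% in R3, a group chosen after its values were seen.

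The remaining rat members were low or followed the same direction. ACTN2 and MYOZ1 had 2 and 4 reads in R1 and 105 and 160 in R3. DES had 7 and 43 reads, CACNA1S 1 and 7, MYOD1 0 and 9, and MYF6 0 and 2. The rank order of members per length was closer between R3 and M5 or M7 (rho 0.81 and 0.76) than between R3 and M4 or M8 (0.66 and 0.63), across 39 genes and not tested. Of 8 osteocyte and osteoblast genes with reads, DMP1, MEPE, PHEX and PDPN were past the fold and higher in R3, the first with 2243 reads in R1 and 34033 in R3. SOST and IBSP had log2 ratios of -1.64 and -0.27, and BGLAP and COL1A1 0.93 and 1.07. The summed reads of the 10 smooth muscle genes were 364.5 RPM in R1 and 653.8 in R3. The part of these cells in the members' values was not tested.

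Macaque bone held few muscle reads at either site. Of the 25 members with a row, 20 had a read in some library, and 9 to 11 exceeded 3 reads in any single library. The site comparison called 1 of these 20, where 19.7% of 18894 symbols were called and 9.43% were called higher in tibia. The median log2 fold change was -0.52 over the 20 members and 0.03 over all symbols. The median stayed at -0.52 with MYOZ1 at its bound and TNNI1 and MYOT, which were under the floor at both sites, left out. At the single-digit reads of most members, small differences between sites were not detectable at this depth.

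The called gene was ACTA1, higher in tibia. It had 4, 17 and 2 reads in G1, G3 and T1, against 34, 47 and 20 in G2, G4 and T2. Its level was 0.952 ± 1.03 CPM in calvaria and 3.67 ± 1.71 in tibia (SD, n = 3 each), and G3 overlapped T2 after scaling. The log2 fold change was -1.94 (SE 0.65, adjusted p = 0.0503 in edgeR's quasi-likelihood test). The call was lost without G4 (-1.55, adjusted p = 0.203), and no member passed an adjusted p of 0.05 in this fit. ACTA1 did pass it with the assumed pairs G1-G2, G3-G4 and T1-T2 as a block (-2.20, adjusted p = 0.0028), with the table letter as a batch (-2.04, adjusted p = 0.0052) and with library size as the only scaling (-2.16, adjusted p = 0.0074). Without T2 the calls were ACTA1, MB and TCAP.

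TPM2 was the most read member under its own symbol in macaque, with 306, 238 and 352 reads in calvaria against 359, 186 and 390 in tibia. These values overlapped, and the log2 fold change of 0.15 (SE 0.23, adjusted p = 0.735) turned to -0.05 with library size as the only scaling and to -0.08 without G4. MYH8 came next, with 104, 128 and 96 reads in G1, G3 and T1 against 94, 109 and 55 in G2, G4 and T2. It exceeded ACTA1 and MYH2 in every macaque library, unlike in mouse and rat. Its log2 fold change was 0.52 (SE 0.32, adjusted p = 0.376). With the assumed pairs it was called at 0.58 (adjusted p = 0.142), as it was with the table letter as a batch (0.58, adjusted p = 0.17), and ACTA1 stayed called in both.

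TCAP, the titin cap of the Z-disc, had 32, 33 and 35 reads in calvaria against 51, 89 and 39 in tibia. The sites did not overlap in reads, but they did after scaling, and the log2 fold change was -0.67 (SE 0.42, adjusted p = 0.386). TCAP was called with library size as the only scaling (-0.89) and without T2 (-0.94). MYH2 had 20, 19 and 5 reads against 45, 23 and 11, and no other member under its own symbol exceeded 17 reads in a library. MYBPC1, CACNA1S, CKM, MYOD1 and MYF6 had no read in any macaque library. CKM is among the most abundant transcripts of adult muscle. The part of the annotation in these empty rows was not tested, and TCAP and MYOT had no read in R3 either.

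Of the 12 members recovered through LOC symbols, TTN had the most reads and DES was called. TTN had 431, 335 and 302 reads in G1, G3 and T1, against 584, 602 and 455 in G2, G4 and T2. It exceeded TPM2 in every library but T1, though its transcript is far longer. The sites did not overlap in reads, but in RPM G1 lay above T2, and the log2 fold change was -0.44 (SE 0.21, adjusted p = 0.217, edgeR's quasi-likelihood test). DES had 27, 45 and 16 reads in calvaria against 17, 13 and 3 in tibia, and a log2 fold change of 1.58 (SE 0.62, adjusted p = 0.105) in the direction opposite to that of ACTA1. TNNI2 had 23, 12 and 20 reads against 10, 5 and 13, and TNNT3 6, 4 and 5 against 10, 23 and 4. The fast share with these genes was 67.7 to 80.0% in calvaria and 67.8 to 89.0% in tibia, from 48 to 84 reads per library, and the sites overlapped. The fast genes MYLPF and MYH1 still had no row, while their slow partners MYL2 and MYH7 were counted. The macaque share is therefore not comparable with that of mouse and rat.

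The difference between mouse and macaque was tested as an interaction of species and site. Over 8196 symbols shared by both species 5.65% were called at an adjusted p under 0.2, and 1 of 20 members was. This was MYH8, whose log2 site difference was 8.18 larger in mouse (SE 0.89, adjusted p = 0.0044, edgeR's quasi-likelihood test). Without M7 the members called were ATP2A1, MYH8 and TCAP, and without M8 they were ACTA1, MYH2 and MYH8. MYH8 was called in every fit that left out 1 library.

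Other muscle genes were read from a list of 60 that holds no member. In mouse 3 of 60 were called, all higher in calvaria (0.712% of all symbols were), with a median log2 fold change of 0.80. They were CSRP3, HSPB7 and KLHL40, at 661, 76 and 109 reads in M4, 124, 203 and 45 in M8, 32, 19 and 14 in M5, and 130, 46 and 25 in M7. CSRP3 encodes a LIM protein of the Z-disc and KLHL40 stabilises thin filament proteins. In rat 39 of 53 were past the fold, all higher in tibia (8.14% of all symbols were), with a median log2 ratio of -3.03. In macaque 8 of 31 were called against 19.7% of all symbols, 3 higher in calvaria and 5 in tibia, with a median log2 fold change of -0.44. The 3 with the smallest p were TRDN and CMYA5, higher in tibia, and PDLIM3, higher in calvaria. The summed reads of the list were 287.3 to 1168 RPM in mouse, lowest in M5 and highest in M4 as for the members. They were 69.6 RPM in R1 and 518.9 in R3. In macaque they were 230.5 to 263.1 RPM in calvaria and 424.4 to 496.6 in tibia, so the sites did not overlap. FBXO32 and TRDN gave most of these macaque reads. FBXO32 had 816, 747 and 716 reads in G1, G3 and T1, against 1264, 1296 and 956 in G2, G4 and T2. TRDN had 518, 536 and 703 against 935, 1209 and 2326.

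Bone and tendon genes did not follow the members across the mouse libraries. The 9 osteocyte and osteoblast genes summed to 25853 and 11176 RPM in M4 and M8 and to 25064 and 20349 in M5 and M7, so M5 was not low. Of these 9 genes 4 were called, all higher in tibia, where 2.28% of all symbols were called in either direction. The 3 with the smallest p were DMP1, SOST and MEPE, at log2 fold changes of -2.89, -2.84 and -1.75. Another 3 were nominally higher in calvaria and not called: COL1A1 (0.47), FGF23 (0.17) and BGLAP (0.16). Of the 8 tendon genes 1 was called, COMP, higher in tibia (-2.60). In this list 4 genes were nominally higher in calvaria, and the median log2 fold change was -0.08. The summed level was 354.4, 63.2, 411.5 and 316.0 RPM in M4, M8, M5 and M7. The part of tendon in the members' values was not tested.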

How the data were processed

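RNA was measured in 12 bone libraries of mouse, rat and macaque. The authors deposited raw read counts per gene, together with the covered exon length, from poly(A)+ single-end reads of 125 bases. Per the study's methods, reads were mapped with HISAT2 to mm10, rn6 or MacaM and counted without regard to strand by HTSeq-count on merged exons, whereas the submitters' processing notes name BWA 0.7.10-r789. Normalised columns of the tables were not used. Groups came from the sample titles, and no column of another sample was present.

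The members, the other gene lists and the isoform pairs were chosen with earlier results of these data known. Rows of the same symbol were summed, and rows without a name (0.00261 to 0.0663% of counts) were left out. Each species was fitted in R 4.3.3 by edgeR 4.0.16, using its quasi-likelihood test and TMM factors on symbols with at least 1 read, with common biological variation of 0.348 in mouse and 0.295 in macaque. DESeq2 1.42.0 and edgeR's exact test were alternatives, and the fits were tested on simulated data. Rat ratios used 1 read added and no test. Exact and Wilson intervals are at 95% and, like the floor of 3 reads, cover counting error only. Python 3.11.15 with scipy 1.17.1 computed them. Shared 125-base stretches came from mouse transcripts of GENCODE vM21, and counting without strand leaves overlapping genes unresolved. LOC symbols of macaque (17111 rows) were renamed through RefSeq names in 5939 rows as an alternative. All members are named by role, with values for those called, past the fold or highest per length, and of the other lists the 3 smallest p per species. The alternatives changed scaling, test, filter, threshold, blocks and libraries.

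Neither labels nor methods name the pairs of skull and tibia. For the assumed macaque pairs G1-G2, G3-G4 and T1-T2 the deviations from the site means correlated at 0.20, 0.28 and 0.45 over 12305 symbols, and for both assumed mouse pairings at 0.02 in size, so the blocked macaque values are given beside the results.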

Additional observations from a re-analysis of the deposited data

Results flagged for a closer look

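The site difference of MYH8 differed between species. Its log2 calvaria over tibia was 8.18 larger in mouse than in macaque (adjusted p = 0.0044, species by site interaction in edgeR's quasi-likelihood test), from 8.78 in mouse and 0.52 in macaque. Both mouse calvaria libraries exceeded both tibia libraries, while the macaque sites overlapped. Species, lane and annotation cannot be told apart in this difference.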

How the results depend on the processing

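In mouse MYH8 was the member called under the main settings, RLE factors, library size alone, scaling without muscle genes, DESeq2, the default expression filter (adjusted p = 0.124) and an adjusted p under 0.05. Members called numbered 2 with the exact test and 0 with symbols read in every library (34 members, MYH8 dropped) or found in all 3 species (17 members), 2 and 9 with a replicate block on the assumed pairs M4-M5/M8-M7 and M4-M7/M8-M5, and 2 to 30 without single libraries. Calls over all mouse symbols fell from 510 to 29 with the default expression filter, 14 with reads in every library and 20 with shared symbols. In macaque the count was 2 with library size alone, with the replicate block, with the table letter as batch and with LOC symbols replaced, 0 when the adjusted p had to be under 0.05, and 0 to 3 without single libraries. Library size alone shifted the median of all macaque symbols by -0.20 and the share of calls higher in calvaria from 52.2 to 30.7%. In rat 27 to 35 members were past the fold under 5 alternatives, and TMM factors shifted the median of all symbols by 0.29. The interaction called 1 to 3 members without single libraries, alternatives chosen after seeing the data. The rat tibia fast share was 91.8% without length and 88.8% without heavy chains.

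Without single libraries the log2 fold change ran from -0.086 to 2.36 for MYH1, -6.84 to 1.02 for MYL1, -0.18 to 2.29 for ACTA1, -0.56 to 1.81 for CKM and -0.59 to 0.82 for TPM2 in mouse, and from -0.076 to 0.30 for TPM2 in macaque, which was -0.047 with library size alone. The cause of these changes was not tested. With 2 libraries per site in mouse, 1 in rat and few reads in macaque, most members' site differences could not be separated from the spread between libraries.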
